A study of Mus musculus with 48 samples.

Results

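The genes described here are 10 members of the major histocompatibility complex (MHC) class I pathway: the heavy chains *H2-K1* and *H2-D1*, the light chain *B2m*, the loading genes *Tap1*, *Tap2* and *Tapbp*, the proteasome genes *Psmb8*, *Psmb9* and *Psme1*, and the regulator *Nlrc5*. They were taken by gene symbol from a fixed list. All 10 were found in both deposited count tables, which hold 20300 genes in one and 14363 in the other.

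MHC class I molecules show peptides from inside a cell to CD8 T cells, and their presence or absence is also read by natural killer cells. The proteasome cuts proteins into peptides, the TAP transporter carries these into the endoplasmic reticulum, and tapasin holds the empty heavy and light chain at the transporter until a peptide binds. Interferon gamma is known to raise most genes of the route, and glioma cells are often described as presenting antigen poorly.

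The study grew GL261 cells, a mouse glioblastoma line, in the striatum of C57BL/6 mice, given in the study's methods as six-week-old males. Their RNA hairpins were either a control (shNC) or directed against *Selp* (shSELP), the gene of the adhesion protein P-selectin. Tumor tissue was dissociated, separated with magnetic beads and read as single cells with droplet-based 3' RNA sequencing. Each library is a pool of brains by the study's methods, and it is not stated if libraries of the same group were separate pools.

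Both experiments compare shNC with shSELP tumors. In the first, called the mix here, tumors were taken on day 16 and separated fractions were pooled in equal amounts. The fractions were CD11b positive cells, further cells positive for CD45, and the leftover after both separations. By the paper, this leftover held not only cancer cells but also other parts of the brain environment. The share of a cell type in a library therefore reflects this mixing as well as the tumor. The mix has 2 shNC and 2 shSELP libraries. In the second, only CD11b positive cells were taken, on day 21, with 1 library per group. The methods name another day and another kit version than the labels do. The description lines of the CD11b positive shSELP library name the negative control in 7 entries, so its group was taken from the title, source and genotype.

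The mix holds 22945972 unique molecular identifiers (UMIs, counted RNA molecules) in library shNC 1, 22626413 in shNC 2, 17398121 in shSELP 1 and 25589350 in shSELP 2. After cells with fewer than 500 genes or over 10% mitochondrial counts were left out, 8726 of 9172 cells of the mix remained. Their median depth was 9547 UMIs per cell in shNC 1, 8051 in shNC 2, 6164 in shSELP 1 and 9879.5 in shSELP 2. The CD11b positive libraries hold 12628177 UMIs for shNC and 11445676 for shSELP, with 5535 of 5724 cells kept. The study's methods describe a random selection of cells per group and other cell numbers than the tables hold. The tables hold 2862 cells for each CD11b positive library and 2289, 2297, 2293 and 2293 for those of the mix. Such even numbers would follow from a selection before deposit, but this is not known, so these totals are those of the tables. Any pair of libraries shared at most 3 cell barcodes.

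Cells were assigned to 4 compartments by how many fixed marker genes had a UMI, and cells that met several definitions or none were left out. Small oligodendrocyte (4, 13, 14 and 14 cells in shNC 1, shNC 2, shSELP 1 and shSELP 2) and fibroblast gates (5, 0, 12 and 1) were set apart and not tested. The tumor gate, built on genes such as *Sox2*, *Nes*, *H19* and *Prph*, held 296 cells in shNC 1, 202 in shNC 2, 67 in shSELP 1 and 51 in shSELP 2. The myeloid gate held 1179, 1130, 1004 and 1234 cells in the same order, and the lymphoid gate 509, 556, 447 and 509. Vascular cells (endothelial and mural) numbered 23, 36, 411 and 96, so the 2 shNC sums rest on few cells. In the tumor gate the 12 myeloid markers summed to 203, 150, 137 and 144 UMIs per 1000000 UMIs of the gate (CPM). This was at most 0.779% of their level in the myeloid gate. Cells with at least 6 of these markers were kept out of the tumor gate, so a low sum was partly set by the gating. Tumor cells had a UMI for a median of 2 of the 12.

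Libraries of a group were not always alike. Differences between the summed counts of shNC 1 and shNC 2 gave a chi-square of 17.9 per degree of freedom, against 59.5 between shSELP 1 and shSELP 2 and 41.8 to 78.2 between groups. Microglia made up 25% of the myeloid cells in shSELP 1 and 5.6%, 7.70% and 7.86% in shNC 1, shNC 2 and shSELP 2. The vascular sum of shSELP 1 also held RNA of 4 red blood cell genes, 4917 CPM in sum and led by *Hbb-bs* at 3311, against 0 in both shNC libraries and 4.78 in shSELP 2. In the myeloid sum of shNC 1, 3 pituitary genes reached 440 CPM, against 1.95 in shNC 2, 1.37 in shSELP 1 and 1.11 in shSELP 2. In tumor cells these pituitary genes summed to 27.1, 8.66, 5.28 and 7.43 in the order shNC 1, shNC 2, shSELP 1 and shSELP 2. The part of these differences in the results below was not tested.

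A level below is a gene's CPM in a gate of 1 library. A tested difference is a log2 fold change with its standard error from edgeR's quasi-likelihood test on summed counts. Its p is adjusted by Benjamini-Hochberg over all genes tested in that comparison, and a gene passed the test at an adjusted p under 0.05. These tests scale libraries by TMM, which sets the typical gene to no change. Between compartments that matters: scaling by total UMIs alone, an alternative chosen after seeing the data, moved the median of all genes by -0.73 for myeloid against tumor cells and by 0.79 for vascular against myeloid cells. Results with total scaling stand beside many of the TMM results below.

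Across the 4 compartments, the members did not all have their highest mean level in the same cells. The RNA of both heavy chains and of *B2m*, the chains of the surface molecule, had its highest mean compartment levels in myeloid cells, as did that of *Tapbp* and *Psme1*. For *H2-K1* the myeloid and lymphoid levels overlapped. Outside these compartments the few oligodendrocytes held more *H2-D1*, at 6091 ± 1446 CPM, and about as much *B2m*, at 5875 ± 1084 (mean ± SD, n = 4), and their *Psmb8*, at 1389 ± 375, was near that of tumor cells, 1297 ± 271. The transporter genes and the immunoproteasome genes had their highest compartment levels in tumor cells, although for the immunoproteasome the tested difference from myeloid cells changed sign with the scaling. Dendritic cells, a part of the myeloid gate, averaged more *Psmb8* (1676 ± 177) and *Psmb9* (873 ± 67.1) than tumor cells (1297 and 577), and less *Tap1* and *Tap2*. Oligodendrocytes were near tumor cells in *Tap1*, at 379 ± 158 against 405 ± 98.2, and in *Tap2*, at 299 ± 70.4 against 321 ± 98.3. These comparisons were not tested. Vascular cells had the lowest mean level for 6 of the 10 genes.

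*H2-K1*, a classical heavy chain that binds the peptide, stood in tumor cells at 1322 CPM in shNC 1, 2473 in shNC 2, 2576 in shSELP 1 and 3169 in shSELP 2. In myeloid cells the levels were 3675, 4173, 3892 and 4260 in the same order, and in lymphoid cells 2999, 3572, 3881 and 3958. Vascular cells gave 2993, 2773, 1673 and 2600. Myeloid levels thus lay above tumor levels in every library and did not overlap with them, while lymphoid and myeloid levels overlapped. The difference between myeloid and tumor cells was 1.53 ± 0.17 on the log2 scale (adjusted p = 1.81e-07), or 0.78 ± 0.19 with total scaling (adjusted p = 0.00131). Against tumor cells, lymphoid cells were higher by 1.01 ± 0.17 (adjusted p = 3.48e-05), and by 0.62 ± 0.19 with total scaling (adjusted p = 0.00835). Vascular and tumor cells did not differ beyond their spread, with -0.00 ± 0.17 (adjusted p = 0.997) by TMM and 0.10 by totals.

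*H2-D1*, the second classical heavy chain of this strain, averaged 3660 ± 365 CPM in myeloid cells, 2745 ± 389 in lymphoid cells, 2414 ± 517 in vascular cells and 1893 ± 549 in tumor cells (mean ± SD, n = 4). Lymphoid and vascular levels lay within their spread of each other. The myeloid level exceeded the tumor level by 1.72 ± 0.16 on the log2 scale (adjusted p = 1.02e-08), and by 0.98 with total scaling (adjusted p = 6.78e-05). Reads of close heavy chain genes can be hard to assign, so part of a count may belong to another H2 gene.

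*B2m*, the invariant light chain, reached 5974, 6161, 5308 and 6095 CPM in myeloid cells of shNC 1, shNC 2, shSELP 1 and shSELP 2. Tumor cells held 2475, 3607, 3467 and 3859, lymphoid cells 3194, 3689, 3472 and 3675, and vascular cells 3857, 3684, 1904 and 2980. Every myeloid library was above every library of the other gates, which overlapped among themselves. The myeloid excess over tumor cells was 1.56 ± 0.15 (adjusted p = 2.06e-08), or 0.81 with total scaling (adjusted p = 0.000258). Lymphoid cells lay below myeloid cells by a log2 difference of -1.10 ± 0.15 (adjusted p = 2.66e-06), or -0.74 with total scaling (adjusted p = 0.000779). Against tumor cells the lymphoid difference of 0.46 ± 0.15 (adjusted p = 0.0113) was lost with total scaling, at 0.07 (adjusted p = 0.740).

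*Tap1*, which encodes a subunit of the peptide transporter, was at 264, 411, 462 and 481 CPM in tumor cells. Myeloid cells had 197, 247, 211 and 251, lymphoid cells 134, 162, 144 and 181, and vascular cells 204, 179, 69.2 and 121. Tumor levels were above all other gates in each library. The tested difference between lymphoid and tumor cells was -0.99 ± 0.19 (adjusted p = 0.000121), and -1.37 with total scaling (adjusted p = 1.16e-05). Between myeloid and tumor cells it was -0.08 ± 0.18 (adjusted p = 0.722) by TMM but -0.82 ± 0.21 (adjusted p = 0.00130) by totals, so this difference depends on the scaling. Without shSELP 1 the TMM value was 0.06.

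*Tap2*, the other transporter subunit, was at 184, 330, 351 and 418 CPM in tumor cells and at 110, 146, 138 and 171 in myeloid cells. Lymphoid cells held 118, 130, 112 and 125. Tumor libraries did not overlap with either. The lymphoid difference from tumor cells was -0.97 ± 0.15 (adjusted p = 1.86e-05), and -1.35 with total scaling. The myeloid difference was -0.41 ± 0.15 (adjusted p = 0.0223), and -1.15 with total scaling (adjusted p = 4.60e-06). By TMM it passed in 1 of 4 fits that leave a library out and missed without shNC 2 (adjusted p = 0.0959), shSELP 1 (0.0877) or shSELP 2 (0.0729). *Tap2* was also the member that turned between vascular and myeloid cells, from -0.64 ± 0.17 (adjusted p = 0.00291) to 0.18 with total scaling (adjusted p = 0.403).

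*Tapbp* encodes tapasin, the bridge between transporter and heavy chain. Its mean level was 368 ± 40.3 CPM in myeloid cells, 304 ± 82.9 in tumor cells, 210 ± 63.9 in vascular cells and 185 ± 20.8 in lymphoid cells (mean ± SD, n = 4). Myeloid and tumor levels overlapped, as did vascular and lymphoid levels. By TMM myeloid cells exceeded tumor cells by 1.05 ± 0.16 (adjusted p = 7.55e-06), which total scaling reduced to 0.30 (adjusted p = 0.122). Lymphoid cells lay below myeloid cells with either scaling, at -1.36 ± 0.16 (adjusted p = 3.54e-07) and -0.996 (adjusted p = 5.93e-05).

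*Psmb8*, a catalytic subunit of the immunoproteasome, reached 909, 1332, 1412 and 1533 CPM in tumor cells. Myeloid cells had 849, 959, 820 and 1012, lymphoid cells 802, 802, 740 and 827, and vascular cells 653, 537, 250 and 395. Each vascular level was below every level of the other gates, and the tumor level of shNC 1 fell within the myeloid range. Vascular cells lay below tumor cells by a log2 difference of -1.69 ± 0.19 (adjusted p = 4.05e-07) and below myeloid cells by -1.92 ± 0.19 (adjusted p = 3.81e-08). With total scaling these were -1.58 and -1.07 (adjusted p = 5.12e-06 and 0.000227). The myeloid against tumor difference flipped with the scaling, from 0.23 ± 0.18 (adjusted p = 0.248) to -0.52 ± 0.20 (adjusted p = 0.0251).

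*Psmb9*, the partner catalytic subunit, averaged 577 ± 144 CPM in tumor cells, 391 ± 40.7 in myeloid, 353 ± 24.9 in lymphoid and 211 ± 63.5 in vascular cells (mean ± SD, n = 4). It flipped in the same way between myeloid and tumor cells, from 0.19 ± 0.17 (adjusted p = 0.306) to -0.55 with total scaling (adjusted p = 0.0113). *Psme1*, a subunit of the proteasome activator PA28, averaged 702 ± 59.1 in myeloid, 618 ± 110 in tumor, 559 ± 38.6 in lymphoid and 351 ± 46.5 in vascular cells. Its vascular level was below the myeloid level by a difference of -1.87 ± 0.13 (adjusted p = 2.24e-10), and -1.03 with total scaling (adjusted p = 3.79e-06).

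*Nlrc5*, a transactivator of class I genes, had few UMIs. Tumor cells held 45.8, 64.5, 27.4 and 65.4 CPM, myeloid cells 24.3, 31.9, 31.5 and 33.6, lymphoid cells 29.6, 31.5, 34.4 and 31.4, and vascular cells 28.1, 8.13, 7.32 and 17.5. Tumor cells were above the other gates in 3 of 4 libraries, and in shSELP 1 the tumor level was below the myeloid and lymphoid levels. The vascular counts behind these levels are 4, 2, 13 and 11 UMIs. Vascular cells lay below tumor cells by a log2 difference of -2.20 ± 0.32 (adjusted p = 9.81e-06), and -2.16 with total scaling. Against myeloid cells, tumor cells did not pass by TMM (-0.03 ± 0.18, adjusted p = 0.912, as myeloid minus tumor), while total scaling gave -0.76 (adjusted p = 0.00116). The TMM sign turned without shNC 1 (0.04) or shNC 2 (0.13).

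**Figure D1:**
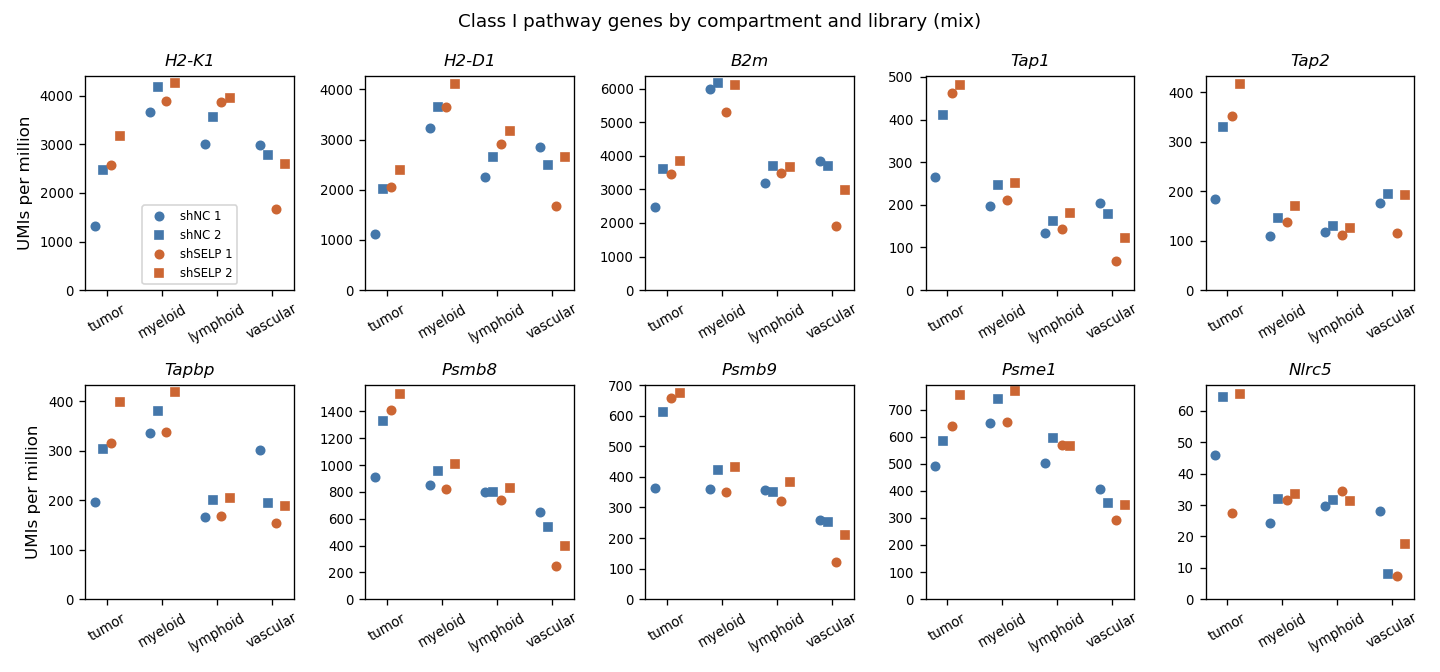
Level of each of the 10 genes (CPM, linear axes from 0) in tumor, myeloid, lymphoid and vascular cells of the mix, with 1 point per library (shNC blue, shSELP orange, library 1 circles, library 2 squares). Myeloid points of *B2m* lie above those of all other gates, from 5308 to 6161.

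Counted over the 10 members, myeloid cells were higher than tumor cells for 5 and lower for 1, where 35.3% of all genes were higher and 34.5% lower. With total scaling the counts were 3 and 5, against 20.4% and 57.0% of all genes. Only the heavy chains and *B2m* were higher and only *Tap2* was lower with both scalings. The members' median log2 difference was 0.59 by TMM, beside 0.01 over all genes, and -0.16 by totals, beside -0.72.

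Lymphoid cells were higher than tumor cells for 3 members, both heavy chains and *B2m*, and lower for 2, *Tap1* and *Tap2*, beside 31.5% and 34.2% of all genes. The members' median was -0.31 and that of all genes -0.03. Without shNC 1 the number of members that passed grew from 5 to 8, as *Tapbp* (-0.41, adjusted p = 0.0144), *Psmb8* (-0.45, adjusted p = 0.0281) and *Psmb9* (-0.48, adjusted p = 0.0171) joined, and without shSELP 1 *Nlrc5* passed at -0.54 (adjusted p = 0.00668). Total scaling, which moved the median gene by -0.37, gave 2 higher (the heavy chains) and 6 lower (both transporter genes, *Tapbp*, *Psmb8*, *Psmb9* and *Nlrc5*) beside 21.8% and 45.1% of all genes, and turned *Psme1* from 0.25 to -0.13.

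Vascular against tumor cells gave 0 members higher and 7 lower by edgeR, beside 25.9% and 28.2% of all genes, and DESeq2 also called 7. Those lower were the transporter genes, *Tapbp*, the 3 proteasome genes and *Nlrc5*, and the same genes passed with total scaling. Their heavy and light chains did not pass. The members' median was -0.99, against -0.06 for all genes. *Tapbp* missed without shSELP 2, at -0.53 (adjusted p = 0.0573). *B2m* passed without shNC 1, at -0.43 (adjusted p = 0.0228), as did *H2-D1* without shSELP 1, at 0.44 (adjusted p = 0.0468). Over 11 settings *B2m* lay between -0.73 and -0.05 and kept its sign and side of the threshold in 8. *H2-K1* changed sign without shSELP 1 (0.18) or shSELP 2 (0.11).

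Lymphoid cells were lower than myeloid cells for 9 of 10 members and higher for 0, beside 32% and 26.6% of all genes, with medians of -0.62 and -0.05. *Nlrc5* was the exception at -0.29 ± 0.17 (adjusted p = 0.159). Total scaling, which moved the median gene by 0.36 and gave 23.5% of all genes lower and 41.4% higher, kept 5 of them: *H2-D1*, *B2m*, *Tap1*, *Tapbp* and *Psme1*. The other 4 were weak in further ways. *H2-K1* and *Psmb9* missed without shNC 2 (adjusted p = 0.06 and 0.065) or shSELP 2 (0.0528 and 0.0807). *Psmb8* and *Tap2* missed without shSELP 2 (0.0700 and 0.0516), and DESeq2 called 6 members.

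Vascular cells were lower than myeloid cells for 10 of 10 members, beside 34.2% of all genes lower and 27.1% higher. DESeq2 called 10 as well, and total scaling called 9, all but *Tap2*, beside 16.9% of all genes lower and 48.6% higher. The members' median was -1.77 by TMM and -0.92 by totals, where the medians of all genes were -0.16 and 0.62. Against lymphoid cells, vascular cells were lower for 8 members and higher for 0, beside 31.5% and 29.7% of all genes, with medians of -0.91 and -0.07. Total scaling moved the median gene by 0.43, gave 20.7% of all genes lower and 39.5% higher, and kept 5: *H2-K1*, *Psmb8*, *Psmb9*, *Psme1* and *Nlrc5*. It turned *Tap2* from -0.08 to 0.38 and *Tapbp* from -0.38 to 0.09. *Tapbp*, short of the limit by TMM (adjusted p = 0.0664), passed without shNC 1 (-0.54, adjusted p = 0.00366), and *Tap2* changed sign without shSELP 1 (0.03).

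Other genes of the route were followed in 4 fixed lists. Among 12 tested class I heavy chain and class I-like genes, 9 were higher and 0 lower in myeloid than in tumor cells, beside 35.3% and 34.5% of all genes, and 6 and 2 with total scaling, beside 20.4% and 57.0%. The widest gaps were in the heavy chain genes *H2-Q7*, at 5.41 ± 0.54, and *H2-Q6*, at 5.34 ± 0.41. *Hfe*, a class I-like regulator of iron uptake, was higher by 3.77 ± 0.19, and *Fcgrt*, the neonatal Fc receptor, by 3.04 ± 0.27. These 2 were also higher in vascular than in tumor cells, at 2.56 ± 0.26 and 4.37 ± 0.29. So were *H2-Q7*, at 3.996 ± 0.544, and *H2-Q6*, at 3.896 ± 0.508. Lymphoid cells also exceeded tumor cells in *H2-Q7* (5.88 ± 0.55) and *H2-Q6* (5.53 ± 0.41), but had less *Hfe* (-3.14 ± 0.42). All of these values passed with both scalings. The gaps of *H2-Q6* and *H2-Q7* were thus not particular to myeloid cells, as tumor cells were lower than each other compartment. Leaving out shSELP 1 raised *H2-Q6* to 6.55 and *H2-Q7* to 6.24 in the myeloid comparison, and without shNC 2 *H2-Q6* was 4.72.

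The 16 constitutive proteasome genes do the housekeeping form of the same cutting. In myeloid against tumor cells 5 were higher and 0 lower by edgeR with TMM, beside 35.3% and 34.5% of all genes, and 0 higher and 11 lower with totals, beside 20.4% and 57.0%. In vascular against tumor cells 12 were lower and 0 higher by TMM, beside 28.2% and 25.9% of all genes, and 11 and 0 by totals, beside 26.4% and 27.3%, led by *Psma7* at -1.21 ± 0.14 and *Psmb3* at -1.11 ± 0.14. Of 14 genes of peptide supply, trimming and loading, 10 were lower and 1 higher in vascular than in tumor cells, and 8 and 1 with total scaling, beside the same shares. They included *Thop1*, a peptidase, at -2.27 ± 0.33, and *Psme2*, the second PA28 subunit, at -1.36 ± 0.18.

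Among 20 regulators and interferon genes, 14 were higher and 3 lower in myeloid than in tumor cells, beside 35.3% and 34.5% of all genes, and 9 and 5 with total scaling, beside 20.4% and 57.0%. The interferon receptor genes *Ifngr2* (3.03 ± 0.20) and *Ifnar1* (2.79 ± 0.21) and the kinase gene *Jak2* (3.03 ± 0.13) passed with both scalings. *Ifng*, which encodes interferon gamma itself, was higher in lymphoid than in tumor cells by 9.68 ± 0.33 and than in myeloid cells by 8.67 ± 0.27. *Ciita*, the class II counterpart of *Nlrc5*, was lower in lymphoid than in myeloid cells, at -3.58 ± 0.31.

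Finer gates within compartments were compared in a separate fit of sums of at least 10 cells. Dendritic cells, which present antigen to T cells, differed from macrophages in 6 members, beside 37.7% of all genes. *Psmb8*, *Psmb9*, *Psme1*, *Tap1* and *Tap2* were higher and *B2m* was lower. Of 13 tested genes of peptide supply, trimming and loading, 5 were higher and 3 lower with total scaling, beside 22.9% and 15.5%. Microglia had *Tapbp*, *Tap2* and *Psmb8* lower than macrophages, a share of members no larger than the 37.0% of all genes that differed. The *Psmb8* call was lost with total scaling. Natural killer cells held less *Tap2*, *Psmb8* and *Psmb9* than T cells. These contrasts were fitted with edgeR alone.

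Dendritic cells numbered 58, 85, 53 and 105 in the libraries in the usual order. Their *Psmb9* level averaged 873 ± 67.1 CPM against 367 ± 25.3 in macrophages, and *Psme1* 1342 ± 148 against 666 ± 36.9 (mean ± SD, n = 4). Of 10 members 5 were higher and 1 lower than in macrophages, where 37.7% of all genes differed. *Psmb9* was higher by 1.09 ± 0.17 (adjusted p = 1.11e-06), *Psme1* by 0.84 ± 0.13, *Psmb8* by 0.74 ± 0.19 and *Tap2* by 0.55 ± 0.14. *B2m* was lower at -0.73 ± 0.19 (adjusted p = 0.00215). *Tap1*, at 0.41 ± 0.15 (adjusted p = 0.0277), missed without shNC 1 (0.130), shNC 2 (0.113) or shSELP 2 (0.0681). Without shSELP 1 *H2-K1* also passed at -0.48 (adjusted p = 0.00741) and *H2-D1* at -0.40 (adjusted p = 0.0207). Total scaling kept the same 6 genes, moved the median gene by 0.16 and turned *Tapbp* from -0.15 to 0.01, with 22.9% of all genes higher and 15.5% lower, against 17.7% and 20% by TMM. *Nlrc5*, at 0.24, turned to -0.07 without shSELP 2.

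Microglia, the resident macrophages of the brain, had 3 members lower and 0 higher than macrophages, where 37.0% of all genes differed, so the share of members is no larger than that of genes at large. *Tapbp* was at -0.58 ± 0.15 (adjusted p = 0.00202), *Tap2* at -0.52 ± 0.14 (adjusted p = 0.00333) and *Psmb8* at -0.55 ± 0.19 (adjusted p = 0.0193). *Psmb8* missed without shNC 2 (adjusted p = 0.0846) and with total scaling (-0.41, adjusted p = 0.124). That scaling moved the median gene by 0.14 and turned *Nlrc5* from -0.12 to 0.02, with 22.5% of all genes higher and 14.2% lower, against 17.6% and 19.3% by TMM.

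Natural killer cells had 3 members lower and 0 higher than T cells, beside 14.0% of all genes. *Psmb9* averaged 196 ± 29.6 CPM there and 359 ± 36.8 in T cells (mean ± SD, n = 4). The difference was -0.95 ± 0.20 (adjusted p = 0.000715). *Tap2* was at -0.83 ± 0.22 (adjusted p = 0.00574) and missed without shNC 2 (adjusted p = 0.121). *Psmb8*, at -0.70 ± 0.20 (adjusted p = 0.0155), missed without shNC 1 (0.134) or shNC 2 (0.164) and with total scaling (0.0516). *Tap1* passed without shSELP 1, at -0.83 (adjusted p = 0.00346). The signs of *H2-K1* (-0.01) and *Psme1* (0.00) turned without shNC 1, and those of *Nlrc5* (0.08) and *Tapbp* (0.01) without shNC 2.

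B and plasma cells had 1 member above T cells, *Psmb9* at 0.58 ± 0.18 (adjusted p = 0.0169), and 1 below, *Nlrc5* at -1.55 ± 0.51 (adjusted p = 0.0238), beside 20.9% of all genes. Neither is firm. *Psmb9* missed without shSELP 1 (0.35, adjusted p = 0.125) or shSELP 2 (0.48, adjusted p = 0.0888), and *Nlrc5* without shNC 2 (0.144), shSELP 1 (0.0781) or shSELP 2 (0.0546). Without shSELP 1 *B2m* passed at 0.42 (adjusted p = 0.0307). Total scaling moved the median gene by -0.40, gave 5.85% of all genes higher and 26.7% lower (8.56% and 12.4% by TMM), turned 5 members and took *Psmb9* to 0.24 (adjusted p = 0.415). With it 3 members were lower and 0 higher by edgeR, as *H2-D1* (-0.57, adjusted p = 0.0336) and *Psme1* (-0.44, adjusted p = 0.0469) joined *Nlrc5*. Values near 0 turned too: *Psme1* without shNC 1 (0.01), *H2-K1* (0.17) and *Psmb8* (-0.00) without shSELP 1, and *Tap2* without shNC 1 (-0.04), shSELP 1 (-0.02) or shSELP 2 (-0.08).

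Neutrophils and mural cells reached 10 cells in the shSELP libraries alone. Neutrophils had 0 members that differed from macrophages by edgeR, with 5 at an unadjusted p under 0.05, beside 9.67% of all genes, and DESeq2 was not run on these gates. Total scaling moved the median gene by 0.20 there, with 5.05% of all genes higher and 2.15% lower against 4.38% and 5.28% by TMM, and turned no member. Without shSELP 1 *H2-K1* (-1.04, adjusted p = 0.00272) and *B2m* (-0.80, adjusted p = 0.0178) passed. Mural cells, the contractile cells around vessels, were below endothelial cells for 4 members, *H2-K1* (-1.23 ± 0.33), *H2-D1* (-0.95 ± 0.28), *B2m* (-0.94 ± 0.26) and *Tapbp* (-0.79 ± 0.28), beside 21.1% of all genes. These rest on shSELP 1: without it *H2-K1* was -0.54 (adjusted p = 0.132), *H2-D1* -0.25, *B2m* -0.35 and *Tapbp* -0.37. Without shSELP 2 they were -2.85, -2.40, -2.15 and -1.51, and *Psmb8* (-2.20), *Psmb9* (-2.09) and *Tap2* (-1.31) passed too. *Tapbp* also missed without shNC 1 (adjusted p = 0.0878) or shNC 2 (0.0647) and with total scaling (0.0563).

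The libraries also compare shSELP with shNC tumors. For the 10 members the tests gave no call in any of the 7 gates compared. In tumor cells most levels were higher in both shSELP libraries than in both shNC libraries, but none of these differences passed. In vascular cells the tested members lay on the lower side in shSELP libraries, again without passing. In myeloid and lymphoid cells the values lay between -0.09 and 0.28, and none passed. Both heavy chains were higher in both shSELP libraries in lymphoid cells.

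*Selp* itself, the target of the hairpins, was read in too few UMIs to follow the knockdown in tumor cells: 1, 1, 0 and 0. The 0 of 947450 UMIs in shSELP 1 and of 673052 in shSELP 2 allow up to 3.89 and 5.48 CPM by exact 95% intervals. In vascular cells, where P-selectin is normally made, the counts were 8, 12, 0 and 4, or 56.2, 48.8, 0 and 6.38 CPM, with the shSELP libraries below both shNC libraries. The difference there was -4.74 ± 1.03 (p = 0.00192 unadjusted by edgeR, adjusted p = 0.130).

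In tumor cells edgeR called 0 of 10 members between shSELP and shNC, with 0 at an unadjusted p under 0.05, beside 0.8% of all genes called. DESeq2 called 0, with 1 at an unadjusted p under 0.05. Levels of 8 members did not overlap between groups, with shSELP above, where 27.1% of all tested genes had shSELP above both shNC libraries and 20.1% below. The members' median was 0.41, against -0.00 for all genes. With total scaling it was 0.47, beside 0.06 for all genes. In that scaling the constitutive proteasome genes had a median of 0.33 and those of peptide supply, trimming and loading 0.43. The other class I heavy chain and class I-like genes were at 0.36, and regulators and interferon genes at -0.14. The higher values were thus not particular to the members. *H2-K1*, at 1322 and 2473 CPM in shNC and 2576 and 3169 in shSELP, had a log2 fold change of 0.54 ± 0.27 (adjusted p = 0.385). *H2-D1* was at 1114 and 2010 in shNC and 2048 and 2401 in shSELP, giving 0.45 ± 0.25 (adjusted p = 0.452). In both genes shNC 1 was far below the other 3 libraries, which lay closer together.

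The loading genes had the same layout. *Tap2*, at 184 and 330 CPM in shNC and 351 and 418 in shSELP, gave 0.52 ± 0.25 (adjusted p = 0.367). *Tap1* went with 264 and 411 against 462 and 481 (0.42 ± 0.21, adjusted p = 0.392), and *Tapbp* with 196 and 303 against 317 and 398 (0.45 ± 0.22, adjusted p = 0.376). Again shNC 1 was lowest and shNC 2 was near the shSELP libraries. *B2m*, at 2475 and 3607 against 3467 and 3859, overlapped between groups (0.21 ± 0.22, adjusted p = 0.704). *Nlrc5* overlapped too, with shSELP 1 lowest, and gave -0.36 ± 0.34 (adjusted p = 0.666), a sign that turned to 0.19 when cells were thinned to 2000 UMIs and to 0.18 without shSELP 1. *B2m* was -0.03 without shNC 1.

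The proteasome genes were at 909 and 1332 CPM in shNC and 1412 and 1533 in shSELP for *Psmb8* (0.33 ± 0.21, adjusted p = 0.496). *Psmb9* had 364 and 613 against 659 and 673 (0.39 ± 0.23, adjusted p = 0.473), and *Psme1* 492 and 585 against 640 and 755 (0.31 ± 0.18, adjusted p = 0.475). These 3 are among the 8 without overlap.

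The values in tumor cells depended on the library left out. A fit without an shNC library leaves 1 in that group, so effect sizes alone are given here. Without shNC 2, *H2-K1* was at 1.002, *H2-D1* at 0.88, *Tap2* at 0.94, *Psmb9* at 0.75, *Tap1* at 0.72 and *Tapbp* at 0.74. Without shNC 1 the same genes gave 0.16, 0.09, 0.16, 0.06, 0.14 and 0.18. 

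Depth and cell numbers go with this comparison. A share of cells with a UMI was compared after thinning each cell to 2000 UMIs. *H2-K1* was then seen in 85.7%, 95.5%, 95.2% and 98.0% of tumor cells, and *B2m* in 98.6%, 98.0%, 96.8% and 95.9%. *Nlrc5* was seen in 10.8%, 13.1%, 6.35% and 22.4%, the last with an exact 95% interval of 11.8% to 36.6%. Free RNA in the droplets was not measured apart: no gate lacks class I RNA, and vascular *Nlrc5* shares, at a median depth of 3030 to 4861.5 UMIs, were 5.88% (1 of 17 cells), 3.33%, 1.91% and 2.35%. The 13 tumor markers summed to 3881, 2787, 2565 and 2438 CPM in the tumor gate. There too shNC 1 was the library apart, as it was for the class I genes. Of 7 oligodendrocyte markers, the 6 reported here summed to 60.6, 66.6, 93.9 and 123 CPM in this gate, with shNC 1 lowest and both shSELP libraries above both shNC libraries, as for 8 of 10 members. The part of these differences in the result was not tested.

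In vascular cells edgeR called 0 of 9 tested members, with 3 at an unadjusted p under 0.05, beside 0.0803% of all genes. DESeq2 also called 0, with 3 at an unadjusted p under 0.05. All 9 log2 fold changes were below 0, with a median of -0.54 beside 0.02 for all genes. *Nlrc5* did not reach the count needed for a test. *Psmb8* levels were 653 and 537 CPM in shNC and 250 and 395 in shSELP, a difference of -0.91 ± 0.26 (adjusted p = 0.186). *Tap1*, at 204 and 179 against 69.2 and 121, gave -1.06 ± 0.33 (adjusted p = 0.204), and *B2m*, at 3857 and 3684 against 1904 and 2980, gave -0.65 ± 0.22 (adjusted p = 0.234). For these 3 and for *H2-K1*, *Tapbp*, *Psmb9* and *Psme1* the groups did not overlap, or 7 of 9 with shSELP below, where 22.2% of all tested genes had shSELP below and 26.7% above.

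These vascular values hang on few cells and on shSELP 1. Without shSELP 2, which leaves 1 shSELP library, *B2m* was at -0.97, *Tap1* at -1.44 and *Psmb8* at -1.23. With no filter on low counts the same 3 passed by edgeR at -0.57, -0.99 and -0.83 (adjusted p = 0.0235, 0.0404 and 0.0278). In that setting the number of all genes called also rose, from 5 to 368. Leaving out the cells with the highest Scrublet doublet scores, a setting chosen after seeing the data, turned *B2m* to 0.06 and *H2-D1* to 0.10. *Tap2* was 0.05 without shSELP 1. The constitutive proteasome lay on the same side, with 16 of 16 genes below 0 and a median of -0.49, so the low values were not particular to class I genes.

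In myeloid cells edgeR called 0 of 10 members and 0.0% of all genes, and 0 members had an unadjusted p under 0.05 by edgeR or by DESeq2. The members' median was 0.07, against 0.01 for all genes. *Tap2*, at 110 and 146 CPM in shNC and 138 and 171 in shSELP, had the largest value, 0.28 ± 0.17 (adjusted p = 0.598). All 10 genes overlapped between groups, where 41.8% of all tested genes did not. In macrophages 0 of 10 were called by edgeR, with 1 at an unadjusted p under 0.05, beside 0.0% of all genes, and DESeq2 called 0, with 2. There *Tap2* had the largest value, 0.35 ± 0.14 (adjusted p = 0.389), with overlap. *H2-D1*, at 0.26 ± 0.11 (adjusted p = 0.407), alone had shSELP above shNC, as had 15.5% of all tested genes.

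Signs in the myeloid gate were not stable. Without shNC 1 *Psmb9* (-0.06), *Tap1* (-0.06), *Psmb8* (-0.02) and *Psme1* (-0.01) were below 0. Without shSELP 2 so were *Psmb9* (-0.18), *Psmb8* (-0.17), *Psme1* (-0.12), *Tapbp* (-0.12), *Tap1* (-0.10) and *H2-K1* (-0.04), and without shSELP 1 *B2m* was 0.04. In macrophages *B2m* turned to 0.11 without shSELP 1 and *Psme1* to -0.00 without shSELP 2.

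In microglia edgeR called 0 of 10 members, with 2 at an unadjusted p under 0.05, beside 2.35% of all genes, and DESeq2 called 0, with 1. The members' median was -0.18, against 0.01 for all genes. *B2m* stood at 7891 and 8061 CPM in shNC and 5725 and 6804 in shSELP, a log2 fold change of -0.39 ± 0.14 (adjusted p = 0.174). *H2-K1* stood at 4769 and 5555 against 3936 and 4742 (-0.29 ± 0.15, adjusted p = 0.346) and *Tapbp* at 295 and 341 against 232 and 281 (-0.36 ± 0.17, adjusted p = 0.292). In all 3 genes the shSELP libraries were lower without overlap, shSELP 1 lowest, and in *Nlrc5* they were higher without overlap. Of all tested genes 19.5% had shSELP below and 26.7% above, so these counts are near what genes at large show. Without shSELP 2, which leaves 1 shSELP library, *B2m* was at -0.56 and *H2-K1* at -0.47, while *Nlrc5* (-0.05) and *Tap2* (-0.02) turned. Without shSELP 1 *Psme1* (0.12), *Tap1* (0.04) and *H2-D1* (0.03) turned, and without shNC 2 *Psme1* (0.11) and *Tap1* (0.00).

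In lymphoid cells edgeR called 0 of 10 members, with 1 at an unadjusted p under 0.05, beside 0.281% of all genes, and DESeq2 called 0, with 1. *H2-D1*, at 2255 and 2645 CPM in shNC and 2917 and 3162 in shSELP, gave 0.28 ± 0.12 (adjusted p = 0.469). *H2-K1*, at 2999 and 3572 against 3881 and 3958, gave 0.23 ± 0.12 (adjusted p = 0.556). Both heavy chains were above shNC in the 2 shSELP libraries and the other 8 members overlapped, where 24% of all tested genes had shSELP above, so the count is no larger than that of genes at large. T cells alone looked alike, with 0 of 10 called by edgeR and 1 at an unadjusted p under 0.05, beside 0.0418% of all genes, and 0 by DESeq2, with 1. There *H2-D1* gave 0.31 ± 0.13 (adjusted p = 0.501). In both gates the heavy chains kept their sign in every fit without a library, while values of other members near 0 turned, between -0.15 and 0.14.

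**Figure D2:**
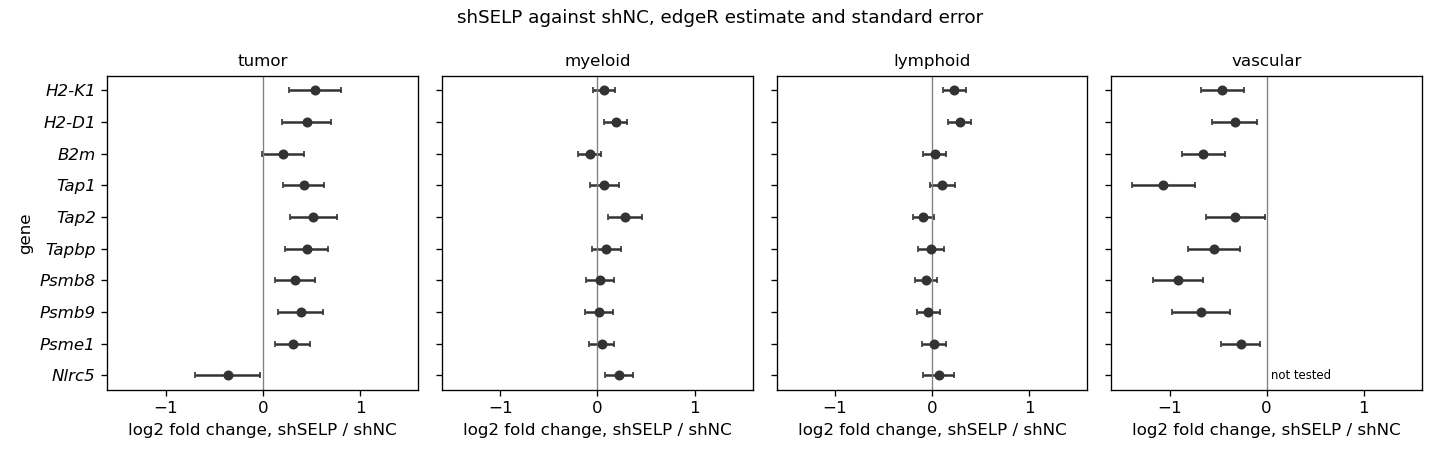
Log2 fold change of shSELP against shNC (horizontal axis, TMM scaling) for each of the 10 genes in tumor, myeloid, lymphoid and vascular cells of the mix, with points for edgeR estimates from 2 libraries per group and bars for 1 standard error. None passed the test, and vascular *Nlrc5* was not tested.

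Whether shSELP acts differently in tumor or vascular than in myeloid cells was tested directly. The difference between tumor and myeloid cells called 0 of 10 members by edgeR, with 0 at an unadjusted p under 0.05, beside 1.19% of all genes. It was 0.49 ± 0.25 for *H2-K1* (adjusted p = 0.398) and -0.62 ± 0.33 for *Nlrc5* (adjusted p = 0.433). The difference between lymphoid and myeloid cells called 0 by edgeR, with 0 at an unadjusted p under 0.05, beside 0.0665% of all genes. The vascular difference called 0 by edgeR, with 2 at an unadjusted p under 0.05, beside 0.362% of all genes. These 2 were *Tap1* at -0.97 ± 0.29 (adjusted p = 0.229) and *Psmb8* at -0.79 ± 0.25 (adjusted p = 0.283). DESeq2 was not run for these differences. Total scaling moved the median of all genes by -0.13 in the vascular one and turned no member there. *Nlrc5* turned to 0.40 without shNC 1 in the vascular difference, and *H2-D1* to -0.06 in the tumor one.

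Among the other genes of the route, 1 of 12 tested class I heavy chain and class I-like genes rose in shSELP tumor cells, beside 0.602% of all genes. With total scaling 2 were called, beside 0.681%, with *H2-Q6* as the other. The TMM call was *H2-Q7*, a nonclassical heavy chain gene of the Qa-2 group, at 7.05 and 10.2 CPM in shNC and 73.9 and 56.5 in shSELP, from 32, 34, 70 and 38 UMIs. Both shSELP libraries were above both shNC libraries, with a log2 fold change of 2.88 ± 0.29 (adjusted p = 0.000949). The stricter tumor gate took it to 1.59 (adjusted p = 0.501). *H2-Q7* was far higher in other cells, at 604 to 752 CPM in myeloid and 1064 to 1324 in lymphoid cells, and their RNA's part in the tumor value was not tested. In vascular cells it was at 892, 529, 205 and 386.

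The tumor change of *H2-Q7* exceeded the myeloid one by 2.80 ± 0.38 (adjusted p = 0.000528). *H2-Q6* also differed between tumor and myeloid cells, by 3.46 ± 0.64 (adjusted p = 0.00857), on 4, 4, 16 and 4 tumor UMIs. It missed without shNC 1 (3.43, adjusted p = 0.0986) or shSELP 1 (2.17, adjusted p = 0.448), and was 4.12 without shSELP 2. Counts of *H2-Q6* and *H2-Q7* can be exchanged, since the genes are near copies.

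In shSELP microglia *Ifngr1*, the ligand-binding chain of the interferon gamma receptor, rose by 0.81 ± 0.18 (adjusted p = 0.0282), as 1 of 19 tested regulators and interferon genes, beside 1.12% of all genes called higher. Its levels were 154 and 115 CPM in shNC and 250 and 225 in shSELP, without overlap. It missed without shNC 2 (0.57, adjusted p = 0.407) and in the stricter gate (0.72, adjusted p = 0.0717). In the tumor, myeloid, lymphoid, vascular and macrophage gates and in T cells none of these regulators passed by edgeR, and whether microglia differ from them was not tested. None of the 16 constitutive proteasome genes passed by edgeR in any of the 7 gates. Their values lay mostly above 0 in tumor cells, 15 of 16, and below 0 in all others, 16 of 16.

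The CD11b positive cells of day 21 offer a second look with 1 library per group, so ratios carry counting intervals and no test. A ratio past 1.5-fold is counted here, a limit set after these values were seen, for genes whose mean reached 20 CPM. Of the 10 members 1 was past it over all cells, beside 7.5% of genes, and the changes went both ways. *Tap1* and *Tapbp* were higher in shSELP and the immunoproteasome pair lower.

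Over all cells *H2-K1* was at 2791 CPM in shNC and 3262 in shSELP, a ratio of 1.17 (exact 95% interval 1.15 to 1.19). *H2-D1* went from 2216 to 1903 (0.859, 0.844 to 0.874) and *B2m* from 4028 to 3479 (0.864, 0.852 to 0.875). The heavy chains thus differed in opposite directions. *Tap1* was at 172 and 242 (1.41, 1.33 to 1.49) and *Tapbp* at 221 and 319 (1.44, 1.37 to 1.51), while *Tap2*, at 54.8 and 54.0, gave 0.985 (0.882 to 1.10).

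*Psmb8* was at 860 and 671 (0.780, 0.757 to 0.803), *Psmb9* at 259 and 194 (0.749, 0.710 to 0.791) and *Psme1* at 575 and 558 (0.970, 0.937 to 1.003). *Nlrc5*, at 26.4 and 48.6 CPM, was the member past 1.5-fold, with a ratio of 1.84 (1.6 to 2.11). The members' median log2 ratio was -0.03, beside 0.07 over all genes. The intervals cover counting error alone and not differences between animals or pools.

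Macrophages, 1945 and 2142 cells, supply most of these UMIs and so are no separate look, with 1 member past 1.5-fold (*Nlrc5*, 1.86, 1.58 to 2.19) beside 9.16% of genes. Microglia, 122 and 84 cells, had 2 beside 20.5% of genes. These were *Nlrc5*, at 23.6 and 61.6 CPM (2.60, 1.43 to 4.88, and 10.2 when cells were thinned, from 2 and 14 UMIs), and *Tap2*, at 53.5 and 25.8 (0.483, 0.238 to 0.914, from 43 and 13 UMIs). In the mix *Nlrc5* was not called in either gate, with 0.16 ± 0.13 in macrophages (adjusted p = 0.658) and 0.12 ± 0.26 in microglia (adjusted p = 0.870), and the mix comes from another day.

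**Figure D3:**
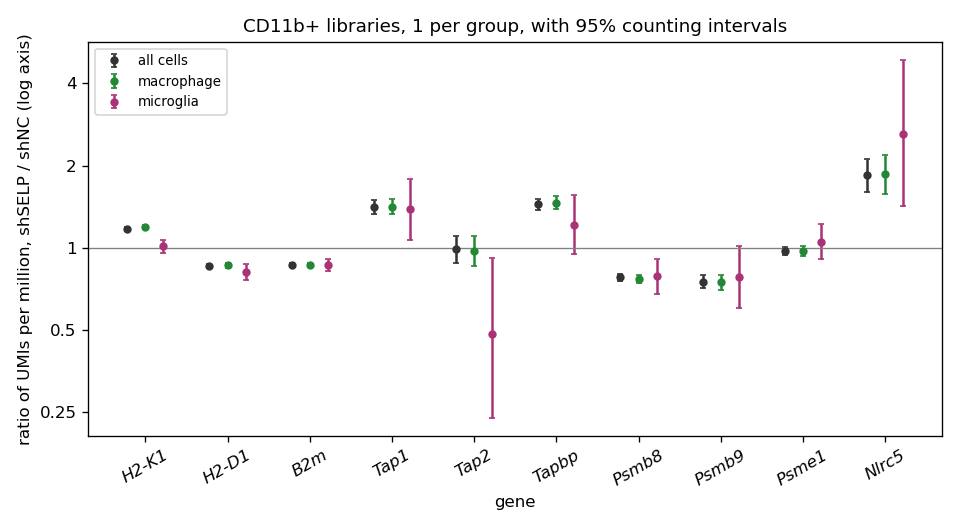
Ratio of CPM in shSELP to shNC (log axis) of each of the 10 genes in the CD11b positive libraries, 1 per group, for all cells, macrophages and microglia, with exact 95% counting intervals. *Nlrc5* is above 1.5 in all 3 sets, at 1.84, 1.86 and 2.60.

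How the members moved together was described over the 16 compartment sums of the mix (4 compartments in 4 libraries), which share libraries and depth and are not independent. *Psmb8* and *Psmb9* had a Pearson correlation of 0.989 on log2 levels, *H2-K1* and *H2-D1* 0.946, and *Tap1* and *Psmb9* 0.915. The lowest values were those of *Tap2* with *H2-K1* (-0.236) and *H2-D1* (-0.284). Outside the list, the genes with the closest pattern to the members' mean, of 6230 with at least 20 CPM, were *Psme2* (0.921), *Gbp8* (0.920), *Zbp1* (0.906), *Sp110* (0.900) and *Ifi206* (0.889).

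In the GRCm38 annotation 7 of the 10 genes lie on chromosome 17. *Psmb9*, *Tap1*, *Psmb8* and *Tap2* follow each other there from chr17:34181987 to chr17:34216321, with the starts of *Psmb9* on the minus strand and *Tap1* on the plus strand overlapping. *Tapbp* lies at chr17:33915899-33929292, *H2-K1* at chr17:33996017-34000347 and *H2-D1* at chr17:35262730-35267499. *B2m* is on chromosome 2, *Psme1* on chromosome 14 and *Nlrc5* on chromosome 8.

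Promoter windows were available for 8 of the 10 genes from RefSeq (GRCm38.p6) and not for *Tap2* and *Nlrc5*. They were searched on both strands for letters noticed in these sequences first, so the counts are descriptions. AANNGAAA, of the kind bound by interferon regulatory factors, was in 3 of 8 windows and in 21.6% of 27025 promoters, and GGGATTCCC, of the kappa B kind, in 2 and in 0.315%. TGACG was in 5 and in 17.8%, and ATTGG, an inverted CCAAT box, in 6 and in 34.5%. TGACG followed by ATTGG at a gap of 20 bases was in 3 of 8 windows, those of *H2-K1*, *H2-D1* and *B2m*, and in 25 of all promoters, or 0.0925%. A match is a description, not a site or a cause. The windows of *H2-K1* (chr17:34000348-34000597, minus strand) and *B2m* (chr2:122147437-122147685, plus strand) are shown because these 2 chains had the highest myeloid levels and share the spaced pair, with the searched letters in capitals.
H2-K1: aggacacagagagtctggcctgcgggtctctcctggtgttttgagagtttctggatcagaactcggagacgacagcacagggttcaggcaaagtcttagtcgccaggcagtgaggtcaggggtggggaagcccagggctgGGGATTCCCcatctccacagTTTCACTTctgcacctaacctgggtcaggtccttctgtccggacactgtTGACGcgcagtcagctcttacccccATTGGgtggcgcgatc
B2m: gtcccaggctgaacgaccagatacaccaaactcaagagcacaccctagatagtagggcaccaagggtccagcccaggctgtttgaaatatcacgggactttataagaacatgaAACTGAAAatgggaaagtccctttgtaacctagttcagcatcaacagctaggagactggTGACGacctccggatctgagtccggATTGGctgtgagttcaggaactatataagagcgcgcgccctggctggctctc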

How the data were processed

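The deposited counts are UMI counts per cell and gene that the authors made with Cell Ranger 1.3 on mm10, in 1 table per experiment, with 6 libraries in all. Computed here from them: cells under 500 genes or over 10% mitochondrial UMIs were dropped (446 and 189), and gates were set by how many markers had a UMI (4 of 13 for tumor, 6 of 12 for myeloid cells), minimums chosen after seeing the marker distributions. Scrublet (5% expected) called 61 and 2 doublets (0.699% and 0.0361%). Of the 61, 44 met several gate definitions and so were in no gate, and the other calls were not removed. UMIs were summed per library and gate. Comparisons used edgeR 4.0.16 (quasi-likelihood, filterByExpr, TMM) in R 4.3.3, with library as a block between gates, and DESeq2 1.42.0 as an alternative. Gating used Python 3.11.15 and scanpy 1.11.5. The edgeR fits were also run on simulated data, and no result given here rests on that. Libraries of the mix hold 17398121 to 25589350 UMIs.

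Named are all 10 members and *Selp*, up to 4 called genes per pathway list and comparison by size of change, and the 5 genes most like the members. *Hbb-bs*, outside this rule, was named after its values were seen. A marker gene is not reported here. The members and lists were chosen with earlier results of these data known. Chosen after values were seen: the 1.5-fold limit for the CD11b positive cells and the promoter letters. The closing section gives the effect of the alternatives.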

Additional observations from a re-analysis of the deposited data

Results flagged for a closer look

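A difference between groups flagged 2 genes, both nonclassical heavy chain genes of the Qa-2 group and neither of them among the 10 members. In the test of the shSELP change in tumor cells minus that in myeloid cells, *H2-Q7* gave 2.80 ± 0.38 (edgeR, adjusted p = 0.000528) and *H2-Q6* gave 3.46 ± 0.64 (adjusted p = 0.00857). The tumor counts behind them are 32, 34, 70 and 38 UMIs for *H2-Q7* and 4, 4, 16 and 4 for *H2-Q6*, in the order shNC 1, shNC 2, shSELP 1 and shSELP 2. *H2-Q7* stood at 604 to 752 CPM in myeloid and 1064 to 1324 in lymphoid cells. The myeloid markers in the tumor gate were at 0.779%, 0.576%, 0.508% and 0.467% of their level in myeloid cells, and the lymphoid markers at 0.209%, 0.185%, 0.237% and 0.489% of theirs. The stricter tumor gate lowered the shSELP value of *H2-Q7* from 2.88 to 1.59. The cause of the difference was not tested.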

How the results depend on the processing

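Depth and cell numbers set the limits. Each group of the mix has 2 libraries and the CD11b positive cells have 1, so small differences cannot be told from differences between pools. Vascular sums of shNC rest on 23 and 36 cells and tumor sums of shSELP on 67 and 51, and vascular cells were read at a median of 3030 to 4861.5 UMIs. Where leaving a library out leaves a group with 1, that sample is assumed to vary like the others. Settings chosen after seeing the data were total scaling, dropping the 5% of highest Scrublet scores, endothelial cells alone, and each library left out for the finer gates and for the differences in effect. All alternatives planned at the start were run, but *Nlrc5* gave no value in vascular cells for shSELP, nor in thinned microglia. Why values moved between settings was not examined: the cause was not tested. Values below are log2 fold changes unless they are called counts.

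Counted here are members that kept both their direction and their side of the threshold in every setting. Vascular against myeloid cells kept 9 of 10, among them *H2-D1* (-1.84 to -0.60) and *Nlrc5* (-2.38 to -1.40). Vascular against tumor cells kept 6, lymphoid against myeloid and vascular against lymphoid cells 5 each, lymphoid against tumor cells 4 and myeloid against tumor cells 3. The last were *H2-K1* (0.78 to 1.62), *H2-D1* (0.98 to 1.81) and *B2m* (0.81 to 1.65). Between compartments 593 values of members were unchanged in call and sign, 20 reversed, 27 lost and 20 gained a call. Of the values for shSELP against shNC 754 were unchanged, 67 reversed and 15 gained a call. The finer gates had 249, with 18 reversed, 22 lost and 11 gained, and the differences in effect 138, with 12 reversed. Other pathway genes reversed 2 times, between compartments, and lost 23 calls there, 3 for shSELP, 2 in a difference in effect and 93 in finer gates. In the CD11b positive cells 98 ratios stayed within their counting interval and 22 left it, with TMM scaling or thinned cells. *Nlrc5* in microglia went to 10.2 when thinned, from 2 and 14 UMIs, and *H2-K1* there to 0.974 with TMM scaling. For shSELP against shNC 2 members kept both in tumor cells, 3 in myeloid, 4 in lymphoid and 4 in vascular cells, 3 in microglia, 7 in macrophages and 3 in T cells. These include *H2-D1* and *H2-K1* in lymphoid cells (0.17 to 0.40 and 0.11 to 0.36). Differences in effect kept 9 for tumor, 4 for lymphoid and 9 for vascular minus myeloid cells. Finer gates kept 8 in microglia, 5 in dendritic cells, 8 in neutrophils, 3 in NK cells, 0 in B and plasma cells and 3 in mural cells.

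The numbers shared by library labels give no pairing, and libraries of the same number did not deviate together (r = -0.0228 to 0.0964 over 7 gates). A fit with that number as a replicate block called 1 member in tumor cells instead of 0, *H2-K1* at 0.59, and changed no other call among members. Under the block *Tapbp* in T cells was -0.00185. Over all genes this block moved the number called from 81 to 250 in tumor cells, from 184 to 501 in microglia and from 5 to 113 in vascular cells. It also went from 28 to 49 in lymphoid cells, from 0 to 40 in macrophages, from 4 to 11 in T cells and from 0 to 1 in myeloid cells.

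Counts of all genes called for shSELP, as reported and as a range over settings, were 81 (0 to 571) in tumor cells, 0 (0 to 399) in myeloid cells, 28 (1 to 305) in lymphoid cells, 5 (5 to 368) in vascular cells, 184 (24 to 501) in microglia, 0 (0 to 606) in macrophages and 4 (4 to 204) in T cells. Differences in effect had 161 (10 to 292) for tumor, 9 (5 to 58) for lymphoid and 49 (22 to 175) for vascular minus myeloid cells. Thinning lowered the calls between compartments, from 8754 to 5109 for myeloid against tumor, from 8230 to 4797 for lymphoid against tumor and from 6787 to 3693 for vascular against tumor cells. Vascular against myeloid cells went from 7682 to 4761 and against lymphoid cells from 7671 to 4646. Among finer gates, neutrophils went from 984 to 247 without shSELP 2, NK cells from 1426 to 934 without shNC 2, mural cells from 2150 to 1264 without shSELP 1, and B and plasma cells from 2131 to 3316 with total scaling.

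With cells thinned to 2000 UMIs, values for shSELP that turned were *Nlrc5* 0.19 in tumor cells, *Tap1* 0.0972 in microglia and *Nlrc5* -0.0570 in macrophages, and *Tap1* -0.00156 and *Psmb8* -0.0113 in myeloid cells. The same thinning gave *B2m* -0.0314, *Nlrc5* -0.25, *Psme1* -0.00258, *Psmb9* 0.00784 and *Tap1* -0.0601 in lymphoid cells, and *B2m* -0.0280, *Nlrc5* -0.38, *Psme1* -0.00933, *Tapbp* -0.18 and *Tap1* -0.0979 in T cells. The stricter gate gave *Psmb9* -0.00142 in myeloid cells and *Nlrc5* 0.00309 in myeloid against tumor. No filter on low counts called 3 members in vascular cells instead of 0, while all genes called there went from 5 to 368. Its turned values were *Psme1* -0.000707 and *Tapbp* -0.0146 in T cells and *Nlrc5* 0.0584 and *Tap1* 0.00759 in myeloid against tumor. DESeq2 had *Tapbp* -0.00750 in T cells, *H2-K1* 0.0887 in vascular against tumor and *Tap2* 0.0286 in vascular against lymphoid. Without the highest Scrublet scores the turned values were *B2m* 0.0614 and *H2-D1* 0.0988 in vascular cells and *H2-D1* -0.0985 in vascular against tumor.

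Total scaling called 8 members instead of 5 in lymphoid against tumor cells, 5 instead of 9 in lymphoid against myeloid cells and 5 instead of 8 in vascular against lymphoid cells. Its turned values were *Psma2* -0.16, *Psma6* -0.30, *Psmb9* -0.55 and *Psmb8* -0.52 in myeloid against tumor. Further turned values were *Psme1* -0.13 in lymphoid against tumor, *H2-K1* 0.10 in vascular against tumor, *Nlrc5* 0.0656 in lymphoid against myeloid, *Tap2* 0.18 in vascular against myeloid and *Tapbp* 0.0930 and *Tap2* 0.38 in vascular against lymphoid. Within compartments they were *Nlrc5* 0.0206 in microglia against macrophage and *Tapbp* 0.0144 in dendritic cells against macrophage, and *B2m* -0.0362, *Tapbp* -0.0462, *Tap1* -0.14, *Psmb8* -0.22 and *Tap2* -0.39 in B and plasma cells against T cells. For shSELP they were *Tapbp* 0.0189 in lymphoid cells, *Tapbp* -0.00713 in T cells and *Psme1* 0.0246 in the lymphoid minus myeloid difference.

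Leaving out each library in turn gave counts of members called for shSELP from 0 to 6 in tumor cells, 0 to 3 in vascular cells and 0 to 2 in microglia. The counts went from 5 to 8 for lymphoid against tumor cells, 5 to 9 for lymphoid against myeloid cells, 0 to 2 for neutrophils, 1 to 4 for NK cells, 0 to 2 for B and plasma cells and 0 to 7 for mural cells. Lowest and highest values of members whose sign turned were, for shSELP in tumor cells, *B2m* -0.0345 to 0.45 and *Nlrc5* -1.05 to 0.18. In myeloid cells they were *B2m* -0.23 to 0.0384, *Psme1* -0.12 to 0.18, *Tapbp* -0.12 to 0.26, *H2-K1* -0.0423 to 0.15, *Psmb9* -0.18 to 0.18, *Tap1* -0.10 to 0.21 and *Psmb8* -0.17 to 0.20. Lymphoid cells gave *B2m* -0.0734 to 0.13, *Nlrc5* -0.0205 to 0.17, *Psme1* -0.0925 to 0.15, *Tapbp* -0.14 to 0.14, *Psmb9* -0.14 to 0.0510 and *Tap1* -0.0448 to 0.25. Microglia had *Nlrc5* -0.0489 to 0.32, *Psme1* -0.27 to 0.12, *Tap1* -0.34 to 0.0435, *Tap2* -0.0249 to 0.36 and *H2-D1* -0.32 to 0.0289, vascular cells *Tap2* -0.67 to 0.0484, and macrophages *B2m* -0.16 to 0.11 and *Psme1* -0.00363 to 0.17. T cells gave *B2m* -0.0765 to 0.18, *Nlrc5* -0.0416 to 0.13, *Psme1* -0.0907 to 0.12, *Tapbp* -0.15 to 0.17, *Psmb9* -0.24 to 0.0272, *Tap1* -0.0966 to 0.26 and *Tap2* -0.19 to 0.00518. Between compartments the ranges were *Nlrc5* -0.21 to 0.13 and *Tap1* -0.18 to 0.0593 in myeloid against tumor cells, *H2-K1* -0.27 to 0.18 in vascular against tumor cells and *Tap2* -0.16 to 0.0303 in vascular against lymphoid cells. Differences in effect ranged over *H2-D1* -0.0612 to 0.65 for tumor, *Nlrc5* -1.57 to 0.40 for vascular and, for lymphoid minus myeloid cells, *B2m* -0.0135 to 0.28, *Nlrc5* -0.31 to 0.0383, *Psme1* -0.18 to 0.19, *Tapbp* -0.19 to 0.0294, *Psmb9* -0.12 to 0.0497 and *Psmb8* -0.20 to 0.0658. Dendritic cells against macrophages had *Nlrc5* -0.0711 to 0.34, NK cells against T cells *Nlrc5* -0.51 to 0.0791, *Psme1* -0.11 to 0.000514, *Tapbp* -0.25 to 0.0109 and *H2-K1* -0.0130 to 0.18, and B and plasma cells against T cells *Psme1* -0.27 to 0.0112, *H2-K1* -0.22 to 0.17, *Psmb8* -0.00106 to 0.29 and *Tap2* -0.0784 to 0.19.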
